A study of Rattus norvegicus with 10 samples.

Results

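AP-1 is a family of transcription factors that bind DNA as pairs of basic leucine zipper (bZIP) proteins. Jun proteins pair with each other or with Fos proteins, and the BATF proteins and ATF3 pair with Jun proteins in the place of Fos. Members such as Fos, Jun, Junb and Atf3 are immediate early genes, whose mRNA follows neuronal activity or injury within a short time. Fos is a widely used marker of activated neurons in the spinal dorsal horn. The family was taken as 10 genes, which were Fos, Fosb, Fosl1, Fosl2, Jun, Junb, Jund, Batf, Batf3 and Atf3, and its mRNAs were found through the RefSeq accession of each array probe. Of the 10 genes, 7 had a probe, with 1 probe each, among 24684 probes and 20259 RNAs tested. For Fosb, Fosl2 and Jund no probe matched, so these genes were not analysed here.

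The arrays held total RNA from the spinal cord of male Sprague Dawley rats, with 1 array per rat. The 5 rats of the morphine tolerance (MT) group, rats 1 to 5, had received 10 μg of morphine in 10 μl intrathecally, 2 times a day over 7 days. The 5 rats of the normal saline (NS) group, rats 6 to 10, had received the same volume of saline on the same schedule. By the study's methods, both groups had a further morning injection of morphine or saline on day 8. The rats were anaesthetized with pentobarbital 1 hour after it, and the lumbar enlargement of the cord was collected. The mRNA levels were therefore read soon after an injection in both groups. The rats were adults, with no age in weeks in the sources used here, and both groups carried the repeated intrathecal injections. Of the markers on the array, 13 of 13 neuron, 8 of 8 astrocyte and 9 of 9 oligodendrocyte markers passed the filter on dim probes. That filter kept 20259 RNAs, against 24645 without it. It also passed 6 of 6 erythrocyte and 8 of 8 meningeal fibroblast markers, so these counts do not identify the tissue.

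The arrays were scanned in 3 groups that shared a scan time. Scan 1 held MT rats 1, 3, 4 and 5, scan 2 held MT rat 2 with NS rats 6, 7 and 10, and scan 3 held NS rats 8 and 9. On each MT array 81.1% to 83.9% of spots passed the flag for signal well above background, against 58.6% to 79.6% on each NS array, with the lowest values, 63.8% and 58.6%, in scan 3. Group and scan were therefore largely confounded, and scan 2 was the single scan with rats of both groups. The 7 members were well above background on 10 of 10 arrays and were saturated on 0 of them.

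Promoter sequences, the 250 bases before the RefSeq start of a gene on the GRCr8 assembly, were held for 4 of the 7 measured members. They are shown to set the promoters of 2 members that met the study's criteria, Batf and Junb, beside those of 2 that did not, Batf3 and Fosl1, and all 4 lie on the plus strand. Batf lies at chr6:111084467-111084716, Batf3 at chr13:105220532-105220781, Junb at chr19:40080876-40081125 and Fosl1 at chr1:212183635-212183884. Capitals mark TGACG or its reverse complement CGTCA (one arm of the cyclic AMP response element), TTCNNNGAA (the core of sites bound by STAT factors) and TATAAA (the TATA box). No sequence was read for Fos, Jun or Atf3.
Batf: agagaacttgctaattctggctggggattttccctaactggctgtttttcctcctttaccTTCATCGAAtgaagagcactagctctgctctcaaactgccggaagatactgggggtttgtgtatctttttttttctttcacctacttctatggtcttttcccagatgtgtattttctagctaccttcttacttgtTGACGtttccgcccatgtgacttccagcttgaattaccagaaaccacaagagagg
Batf3: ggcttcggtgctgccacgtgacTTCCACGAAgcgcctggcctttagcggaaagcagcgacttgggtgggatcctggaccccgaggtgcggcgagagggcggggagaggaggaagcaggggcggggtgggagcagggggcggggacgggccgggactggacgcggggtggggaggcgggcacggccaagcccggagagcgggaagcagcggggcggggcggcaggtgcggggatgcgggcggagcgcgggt
Junb: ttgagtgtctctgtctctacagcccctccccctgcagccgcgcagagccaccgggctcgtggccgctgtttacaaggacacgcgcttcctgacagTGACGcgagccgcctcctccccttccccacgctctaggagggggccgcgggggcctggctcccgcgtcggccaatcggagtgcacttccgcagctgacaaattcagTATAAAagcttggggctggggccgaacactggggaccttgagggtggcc
Fosl1: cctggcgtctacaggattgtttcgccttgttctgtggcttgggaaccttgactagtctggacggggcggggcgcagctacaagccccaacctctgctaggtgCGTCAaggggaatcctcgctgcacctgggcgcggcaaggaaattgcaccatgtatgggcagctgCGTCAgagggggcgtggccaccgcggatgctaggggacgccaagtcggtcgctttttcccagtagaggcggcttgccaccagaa

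Of the members shown, Batf held TGACG at 55 to 51 bases and TTCATCGAA at 190 to 182 bases before the start. Junb held TGACG at 155 to 151, CCAAT at 85 to 81 and TATAAA at 49 to 44 bases. Fosl1 held CGTCA at 148 to 144 and at 84 to 80 bases, and Batf3 held TTCCACGAA at 228 to 220 bases. The search covered both strands of the same window in 33469 promoters. TGACG occurred in 18.2% of them, TTCNNNGAA in 7.67%, TATAAA in 12.9% and CCAAT in 34% of them. TGANTCA, the letters of the AP-1 site itself, occurred in 6.34% of all promoters, the full element TGACGTCA, which contains TGACG, in 1.59% and the CArG box bound by SRF in 1.5%, and these 3 motifs were not found in the 4 windows. A match is a string of letters and was not measured as a bound site.

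In the comparison of MT with NS, the levels of Batf, Fos, Atf3 and Junb were higher in MT by 2.74-fold, 1.69-fold, 1.67-fold and 1.51-fold, while Fosl1, Jun and Batf3 did not meet the study's criteria. These criteria, taken here as more than 1.5-fold on the linear scale together with p below 0.05 before adjustment, were met by 4 of 7 members. Over all RNAs, 1.74% met the criteria with the higher level in MT (352 RNAs) and 0.997% with the lower level (202 RNAs). Under scaling by the 75th percentile these counts were 705 and 112. None of the 7 members had an adjusted p (limma, Benjamini-Hochberg over all RNAs) below 0.05, which 0.197% of all RNAs had (15 higher and 25 lower). An unadjusted p below 0.05 in limma was found for 4 of the 7 members and for 3323 of all 20259 RNAs, in either direction. For Batf and Atf3 the lowest MT rat exceeded the highest NS rat, an order seen in 2.34% of all RNAs. The median log2 difference was 0.59 over the 7 members and -0.00131 over all RNAs, of which 49.8% were higher in MT by sign.

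**Figure D1:**
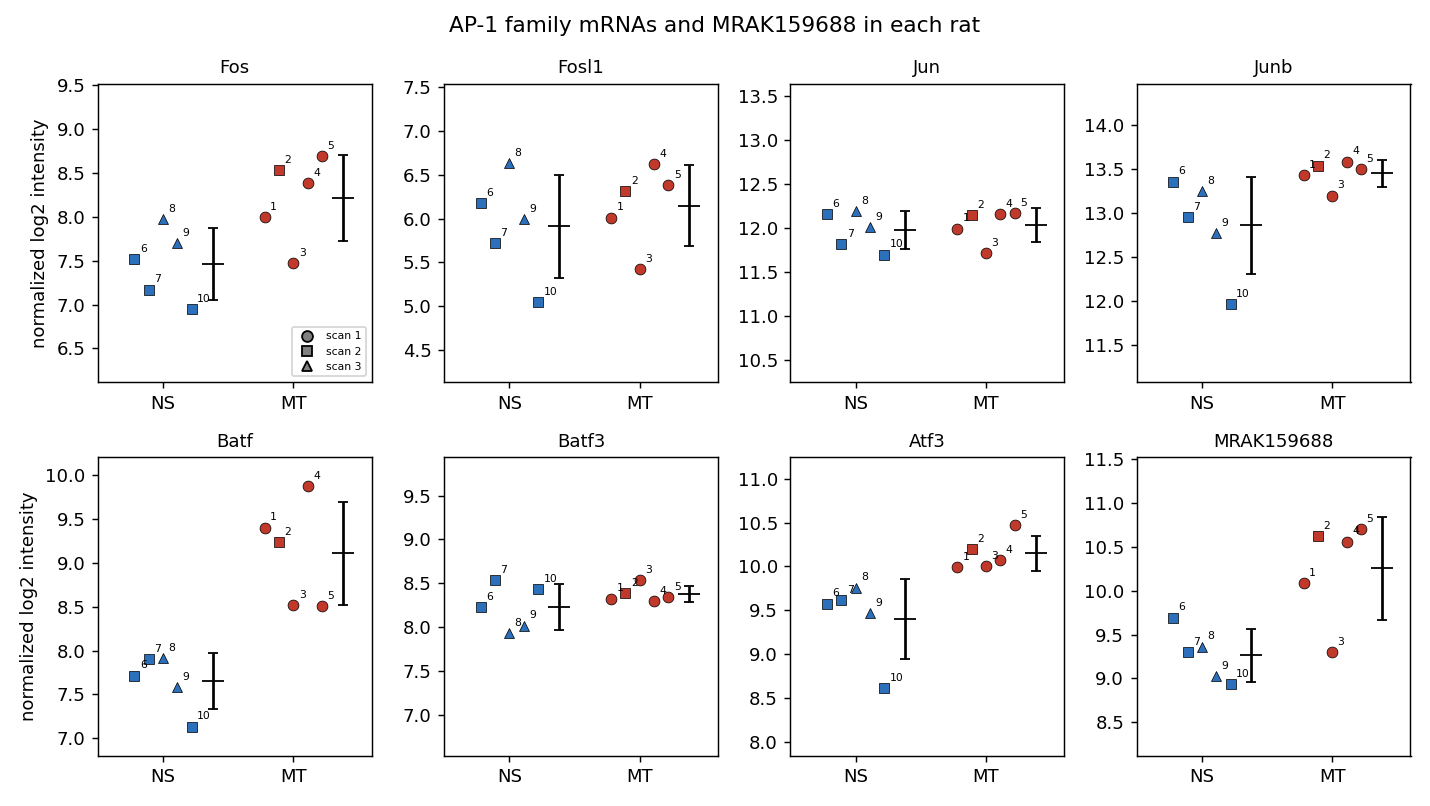
Normalized log2 intensity of the 7 measured AP-1 family mRNAs and of the lncRNA MRAK159688 in each rat (points numbered by rat, shaped by scan), with mean ± SD of the 5 NS and the 5 MT rats beside them. The panels have separate axes and levels are not compared between probes. MT and NS do not overlap for Batf and Atf3, and NS rat 10 is the lowest point for 6 of the 7 members.

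Batf, a BATF protein that pairs with Jun proteins and acts with IRF factors in lymphocytes and other leukocytes, had the largest difference of the members. Its normalized log2 intensity was 9.40, 9.24, 8.52, 9.87 and 8.51 in MT rats 1 to 5 and 7.71, 7.91, 7.92, 7.58 and 7.13 in NS rats 6 to 10. The groups did not overlap, although MT rats 3 and 5 lay closer to the NS rats than the other MT rats did. The mean was 9.11 ± 0.59 (SD, n = 5) in MT and 7.65 ± 0.32 (SD, n = 5) in NS. The log2 difference was 1.46 (SE 0.27, 95% CI 0.85 to 2.07), with an unadjusted p of 0.000343 and an adjusted p of 0.0685 in limma. The exact two-sided permutation test over 252 splits of the rats gave p = 0.00794, the smallest it can give. Within scan 2, MT rat 2 was above the mean of NS rats 6, 7 and 10 by 1.65 on the log2 scale.

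Batf3, the paralog of Batf that is required for a class of dendritic cells, was 8.33, 8.38, 8.53, 8.30 and 8.34 in MT rats 1 to 5 and 8.23, 8.54, 7.93, 8.02 and 8.43 in NS rats 6 to 10. The MT rats lay inside the range of the NS rats. MT minus NS was 0.15 on the log2 scale (SE 0.12, 95% CI -0.12 to 0.42, adjusted p = 0.568 in limma), and it was -0.02 in scan 2 alone and -0.02 without the rats of scan 3.

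Fos, the founding member of the Fos class, was 8.00, 8.53, 7.47, 8.39 and 8.69 in MT rats 1 to 5 and 7.52, 7.17, 7.97, 7.70 and 6.95 in NS rats 6 to 10. Of the MT rats, 4 lay above all NS rats, and MT rat 3 lay among the NS rats. The mean was 8.22 ± 0.49 (SD, n = 5) in MT and 7.46 ± 0.41 (SD, n = 5) in NS. The log2 difference was 0.75 (SE 0.26, 95% CI 0.17 to 1.33), with an unadjusted p of 0.0160 and an adjusted p of 0.211 in limma, and the exact permutation test gave p = 0.0476. The difference was 1.32 within scan 2 and 1.00 without the rats of scan 3.

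Fosl1, which encodes the Fos class protein FRA-1, was 6.01, 6.31, 5.42, 6.62 and 6.38 in MT rats 1 to 5 and 6.18, 5.72, 6.63, 6.00 and 5.05 in NS rats 6 to 10. The groups overlapped over most of their range. MT exceeded NS by 0.23 on the log2 scale (SE 0.30, 95% CI -0.44 to 0.91, adjusted p = 0.723 in limma). It was 0.66 in scan 2 alone, 0.50 without scan 3 and 0.02 without NS rat 10.

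Jun, the main partner of Fos proteins, was 11.99, 12.15, 11.72, 12.16 and 12.17 in MT rats 1 to 5 and 12.15, 11.81, 12.19, 12.01 and 11.70 in NS rats 6 to 10. No MT rat lay above all NS rats. The log2 difference of 0.06 had an SE of 0.13 and a 95% CI of -0.22 to 0.35 (adjusted p = 0.821 in limma), and with scan as a fixed block the interval ran from -0.25 to 0.77. A 1.5-fold change lay outside the first interval and inside the second.

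Junb, a Jun protein that pairs with BATF as well as with Fos proteins, was 13.43, 13.54, 13.20, 13.59 and 13.50 in MT rats 1 to 5 and 13.36, 12.95, 13.25, 12.77 and 11.96 in NS rats 6 to 10. Of the MT rats, 4 lay above all NS rats, MT rat 3 lay among them, and NS rat 10 lay far below the other NS rats. The mean was 13.45 ± 0.15 (SD, n = 5) in MT and 12.86 ± 0.55 (SD, n = 5) in NS. The log2 difference was 0.59 (SE 0.23, 95% CI 0.07 to 1.11), with an unadjusted p of 0.0304 and an adjusted p of 0.262 in limma, and the exact permutation test gave p = 0.0238. Without NS rat 10 the difference was 0.37 (SE 0.14, unadjusted p = 0.0242 and adjusted p = 0.215 in limma), which was below the fold limit. With scan as a fixed block the difference was 0.78. The criteria were met under neither setting.

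Atf3, a stress-induced bZIP factor that marks injured sensory neurons, was 9.99, 10.20, 10.00, 10.07 and 10.47 in MT rats 1 to 5 and 9.58, 9.61, 9.76, 9.46 and 8.61 in NS rats 6 to 10. The groups did not overlap. The mean was 10.15 ± 0.20 (SD, n = 5) in MT and 9.41 ± 0.46 (SD, n = 5) in NS. The log2 difference was 0.74 (SE 0.21, 95% CI 0.28 to 1.20), with an unadjusted p of 0.00478 and an adjusted p of 0.151 in limma, and the exact permutation test gave p = 0.00794. Without NS rat 10 the difference was 0.54 (SE 0.12, unadjusted p = 0.00111 and adjusted p = 0.0830 in limma). It was then below the fold limit, so the criteria were no longer met. Within scan 2 the difference was 0.93.

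NS rat 10 was the lowest of the NS rats for 6 of the 7 members, whereas it was the lowest NS rat for 22.5% of all RNAs. For those 6 members it was also the lowest of all 10 rats, and the share of all RNAs with that order was not computed. MT rat 3 was the lowest MT rat for 4 of the 7 members and for 34.7% of all RNAs. Without NS rat 10, 2 members, Fos and Batf, met the criteria, as did 866 of 20259 RNAs in either direction. Atf3 and Junb missed the fold limit there but not the limit on p. Without the rats of scan 3, 4 members met the criteria, as did 720 of 20255 RNAs. With all 10 rats, 554 of 20259 RNAs met them. Scan as a fixed block takes the group difference from the 1 MT and 3 NS rats of scan 2. In that fit the log2 difference was 1.32 for Fos, 1.65 for Batf, 0.93 for Atf3 and 0.78 for Junb. It was 0.66 for Fosl1, 0.26 for Jun and -0.02 for Batf3. The MT arm of that fit is the single rat 2, which is assumed to vary like the rats within each scan.

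**Figure D2:**
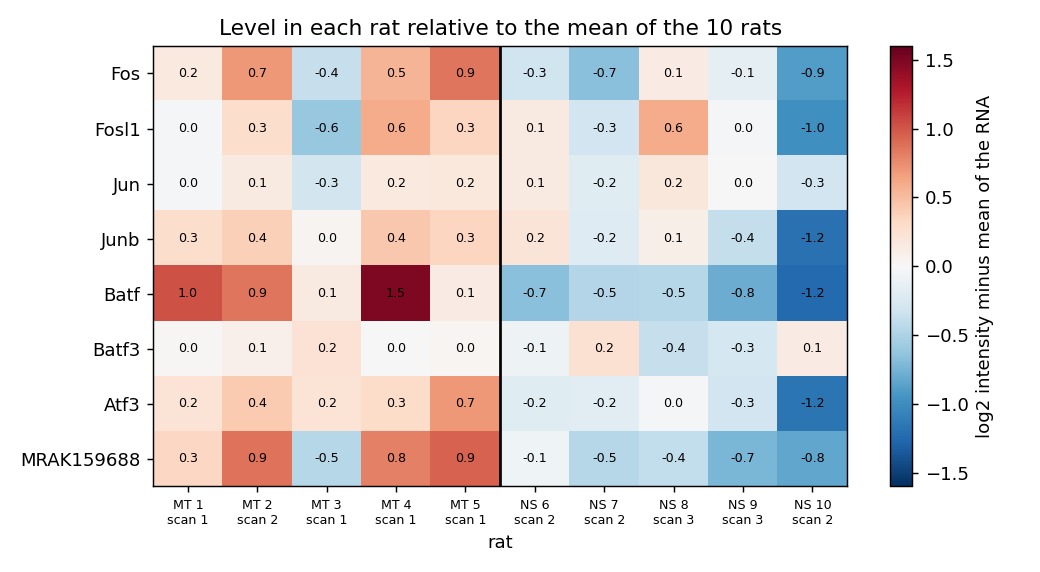
Log2 intensity of each RNA in each rat minus the mean of that RNA over the 10 rats, with the MT rats on the left of the line and the NS rats on the right, each labelled with its scan. Batf is positive in the 5 MT rats and negative in the 5 NS rats, and the column of NS rat 10 is the lowest of all rats for Fos, Fosl1, Jun, Junb, Batf and Atf3.

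**Figure D3:**
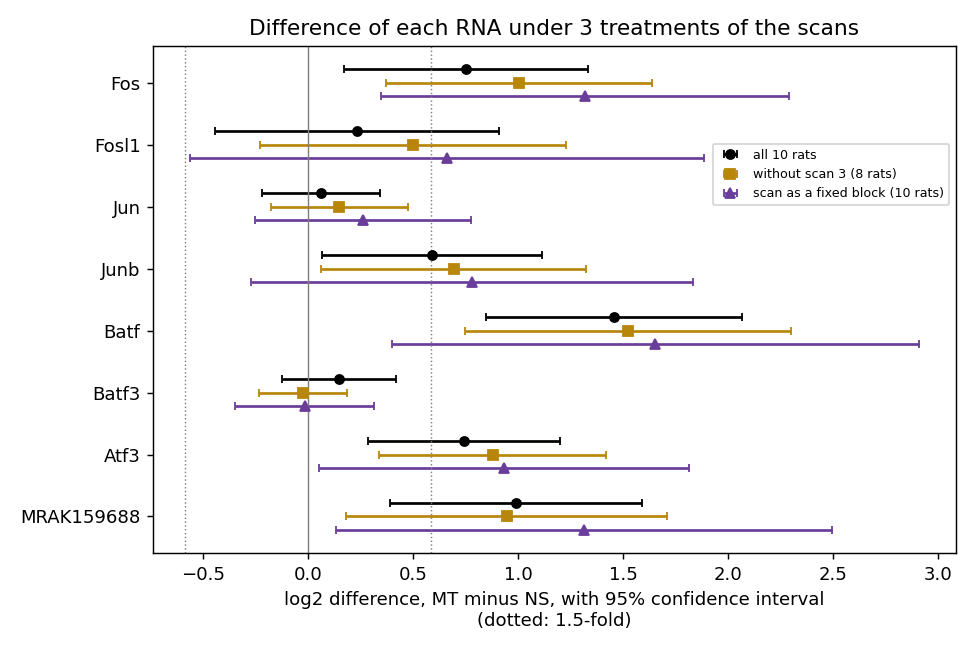
Log2 difference of MT minus NS for each RNA with its 95% confidence interval from limma over all 10 rats, without scan 3, and with scan as a fixed block, with dotted lines at 1.5-fold. The estimates of Fos, Fosl1, Jun, Junb, Batf and Atf3 are above 0 under all 3 settings, and Batf3 is 0.15 with all 10 rats and -0.02 under the other settings.

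MRAK159688 is a lncRNA also named the Fos downstream transcript. Its log2 intensity was 10.09, 10.62, 9.30, 10.56 and 10.70 in MT rats 1 to 5 and 9.69, 9.30, 9.36, 9.03 and 8.93 in NS rats 6 to 10. Of the MT rats, 4 lay above all NS rats, and the exception was MT rat 3, as for Fos. The log2 difference was 0.99 (SE 0.27, 95% CI 0.39 to 1.59), with a fold of 1.99, an unadjusted p of 0.00419 and an adjusted p of 0.146 in limma. It was 1.31 within scan 2 and 0.95 without scan 3.

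Across the 10 rats, Fos and MRAK159688 had a Pearson r of 0.890 (permutation p = 0.00084, adjusted p = 0.00359) and a Spearman rho of 0.891 (permutation p = 0.00119, adjusted p = 0.00416), in a family of 7 relations, 1 for each measured member. Deviations from the group means had an r of 0.781 (permutation p = 0.0066), and the groups, with 5 rats each, were too small for an r of their own. MT rat 3 lay farthest from its group mean for both RNAs, at -0.75 for Fos and -0.96 for MRAK159688. The r of the deviations without this rat was not computed. The 5 MT rats had the same order for both RNAs, with MT rat 3 the lowest, whereas among the NS rats Fos was highest in rat 8 and MRAK159688 in rat 6. Without rats 5 and 10, the 2 farthest from the median of Fos, r was 0.820 (n = 8). The scans held 4, 4 and 2 rats, and no r is given for so few rats. The relation was not particular to Fos. Junb had an r of 0.785 with MRAK159688 (permutation p = 0.0015, adjusted p = 0.00359) and a rho of 0.939 (permutation p = 0.0002, adjusted p = 0.0014), and without rats 9 and 10 its r was 0.884. Fosl1 and Jun had an r of 0.651 and 0.656 (adjusted permutation p = 0.0493 for both), which dropped to 0.474 and 0.497 without the 2 rats farthest from the median. Batf3 had an r of 0.122 (adjusted permutation p = 0.731). For Batf and Atf3 the groups lay apart and no pooled r is given. Of 6857 lncRNAs, 3 had an r with Fos at or above that of MRAK159688, and of 20195 RNAs 29 had.

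**Figure D4:**
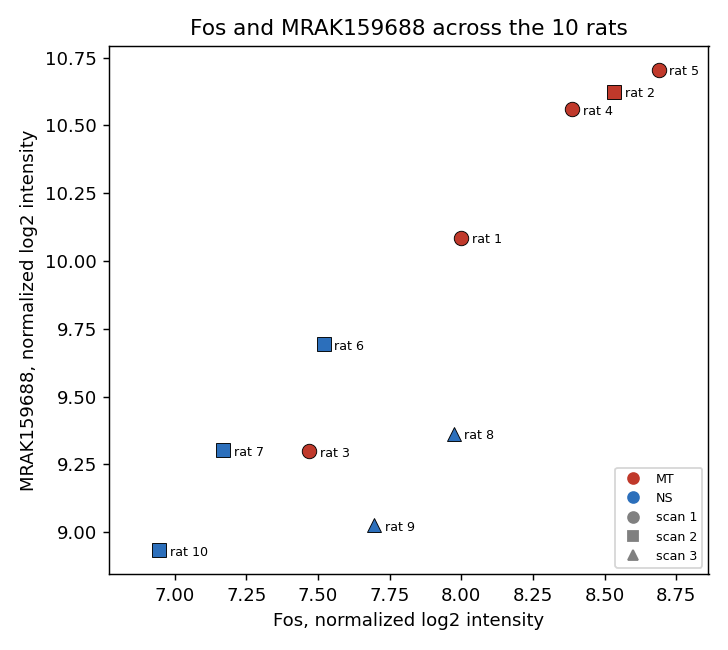
Normalized log2 intensity of MRAK159688 against that of Fos, with 1 point per rat, coloured by group and shaped by scan. MT rats 2, 4 and 5 lie at the upper end, NS rat 10 at the lower end, and MT rat 3 lies among the NS rats on both axes.

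By Pearson r over the 10 arrays and 13315 mRNAs with a value on every array, the mRNAs most like Fos were Stfa2l1 (0.974), Mdh2 (0.960), Foxb1 (0.940), Dact2 (0.938) and Hmox1 (0.936). Mdh2 encodes mitochondrial malate dehydrogenase and Hmox1 haem oxygenase 1. None of these 5 mRNAs had an adjusted p below 0.05 in limma, and their adjusted p ran from 0.245 for Foxb1 to 0.585 for Mdh2. The mRNAs most like Batf were Angptl4 (0.986), an mRNA with no symbol in the RefSeq table (0.984), Ccr1 (0.965), Plet1 (0.964) and Mrc1 (0.963). Ccr1, a chemokine receptor of leukocytes, was higher in MT by 1.37 on the log2 scale (SE 0.17, adjusted p = 0.0287 in limma), and Mrc1, the macrophage mannose receptor, was higher by 0.63 (SE 0.14, adjusted p = 0.0970). These r values describe 10 arrays that share their groups and scans. The groups lay apart for Batf, so an mRNA picked for a high r with it tends to differ between the groups as well. The differences of Ccr1 and Mrc1 are therefore not separate support for that of Batf.

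Fos and Batf are close neighbours in the rat genome. In the order of protein-coding genes in RefSeq, 1 gene, Jdp2, lay between them. Jdp2, a bZIP protein that dimerizes with Jun, had a log2 difference of 0.28 (SE 0.18, adjusted p = 0.462 in limma) against 0.75 for Fos and 1.46 for Batf. Batf3 and Atf3 are adjacent, with 0 protein-coding genes between them, and their log2 differences were 0.15 and 0.74.

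Other genes of the AP-1 pathway were read from 5 lists, with no test over a list. Over all RNAs, 1.74% were higher and 0.997% lower by the criteria. Of 26 related bZIP genes tested, 1 was higher by the criteria and 0 lower, and the median log2 difference was 0.09. That gene was Nfe2, a bZIP factor of blood cells, at 0.99 (SE 0.22, adjusted p = 0.0973 in limma). Of 28 kinases, phosphatases and ternary complex factors that act upstream of AP-1, 0 met the criteria in either direction, and the median was 0.01.

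Of 19 tested genes for BATF partners and for cytokine signals upstream of BATF, 1 met the criteria, and the median was 0.03. It was Socs3, a feedback inhibitor of cytokine signalling through STAT3. Socs3 was 6.62, 6.81, 6.29, 6.85 and 6.50 in MT rats 1 to 5 and 5.99, 5.81, 5.74, 5.81 and 6.04 in NS rats 6 to 10. The groups did not overlap, and the log2 difference was 0.74 (SE 0.12, adjusted p = 0.0466 in limma). With scan as a fixed or a random block no RNA had an adjusted p below 0.05 (the smallest were 0.0758 and 0.0668, and 827 and 1420 RNAs had an unadjusted p below 0.05), so the calls of Socs3, Ccr1 and the microglia marker Gpr34 were lost there.

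Of 31 tested AP-1 target genes, 2 met the criteria, both higher in MT, and the median was 0.14. They were the matrix metalloproteinases Mmp9, higher 2.83-fold (adjusted p = 0.209 in limma), and Mmp12, higher 1.75-fold (adjusted p = 0.253). Mmp12 was dim, with a mean log2 intensity of 3.86 in MT and 3.06 in NS. Of 27 other immediate early genes, 4 were higher and 1 lower by the criteria, with a median of 0.11. The transcription factors Klf4 and Myc were higher by 0.74 and 0.72 and Zfp36, whose protein promotes decay of cytokine mRNAs, by 0.72, while the clock gene Per1 fell by 0.71. The fifth was Ier3, at 0.67, which was named after its value was seen. None of these 5 had an adjusted p below 0.05 in limma, and the smallest of them was 0.0693, for Zfp36. With scan as a fixed block, 2 immediate early genes were higher and 2 lower by the criteria and 1 AP-1 target gene was higher, and without NS rat 10, 3 immediate early genes were higher and 2 lower. Without scan 3, 3 related bZIP genes and 2 BATF partner genes were higher by the criteria. Of all RNAs, 543 were higher and 323 lower by the criteria without NS rat 10, and 380 and 340 without scan 3.

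**Figure D5:**
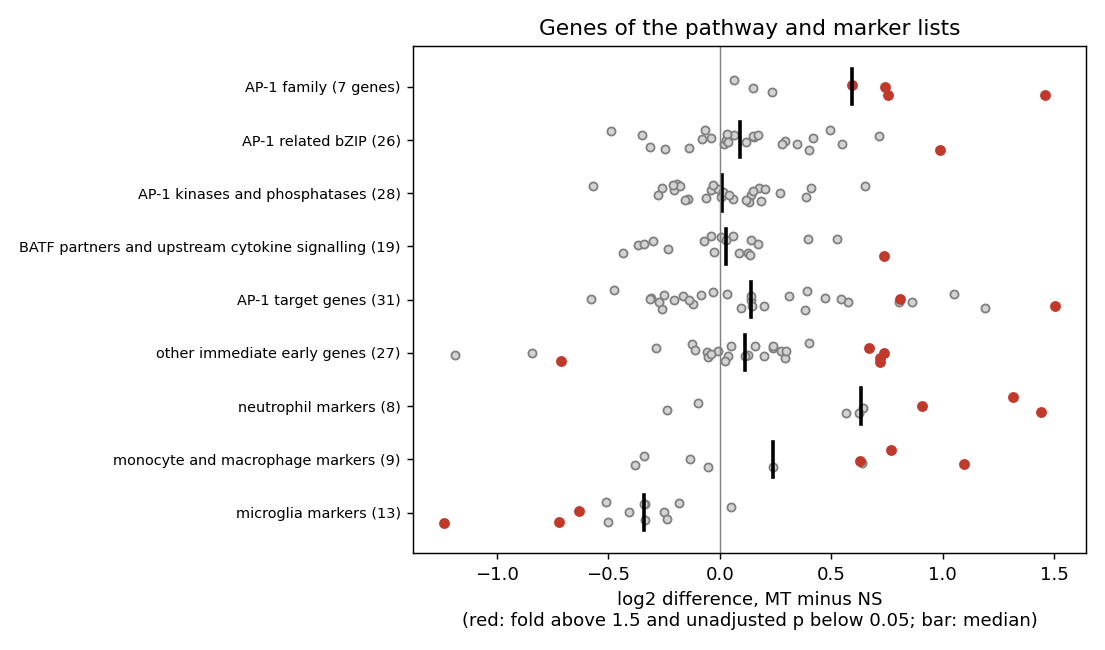
Log2 difference of MT minus NS for each tested gene of the AP-1 family, of 5 pathway lists and of 3 marker lists, with the number of genes in brackets. Red points met the criteria and black bars are medians, which were 0.59 for the AP-1 family, between 0.01 and 0.14 for the pathway lists, 0.64 for neutrophil, 0.24 for monocyte and macrophage and -0.34 for microglia markers.

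Markers of other cell types were set beside the members by their counts, with no test over a list. Of all RNAs, 1.74% were higher and 0.997% lower by the criteria. Of 8 tested neutrophil markers, 6 were higher by sign and 3 by the criteria, which were S100a8 at 1.44, Np4 at 1.31 and Csf3r at 0.91 on the log2 scale (adjusted p = 0.121, 0.0929 and 0.0636 in limma), and Fpr1, Ltf and Mmp8 did not pass the filter on dim probes. Lcn2, the brightest of the tested neutrophil markers, and Itgam were lower in MT by sign, at -0.24 and -0.10. The summed linear intensity of the tested neutrophil markers ran from 3901 to 5749 in MT and from 3135 to 6523 in NS, so the sums overlapped. The count of 3 neutrophil markers was 4 without scan 3 and 4 without NS rat 10. It was lower with scan as a fixed block, where the median log2 difference of the list was 0.41, against 0.64 without the block. Of 9 tested monocyte and macrophage markers, 5 were higher by sign and 3 by the criteria, which were Cd14, higher 2.14-fold, and Lyz2 and Mrc1, higher by 0.77 and 0.63 on the log2 scale (adjusted p = 0.0897, 0.105 and 0.0970 in limma), and Cd163 did not pass the filter. Cd68, Plac8, Fcgr1a and Ccr2 were lower in MT by sign, at -0.38, -0.34, -0.13 and -0.05. The count of 3 monocyte and macrophage markers was 4 without scan 3 and 2 without NS rat 10. It was also lower with scan as a fixed block, where the median log2 difference of the list was 0.43, against 0.24 without the block. The sum of the tested monocyte and macrophage markers ran from 62967 to 104207 in MT and from 38705 to 67284 in NS. Lyz2 weighed most in that sum. Its mean log2 intensity was 15.93 in MT and 15.16 in NS, against 12.82 and 13.16 for Plac8, the next brightest.

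Of 13 microglia markers, 12 were lower by sign and 3 by the criteria, and Tmem119, Trem2 and Gpr34 fell by 1.24, 0.72 and 0.63 on the log2 scale (adjusted p = 0.0555, 0.0634 and 0.0414 in limma). The count of 3 was 1 without scan 3, 2 with scan as a fixed block and 5 without NS rat 10. Their sum ran from 153290 to 195978 in MT and from 184264 to 276408 in NS. Of 12 tested T, B and NK cell markers, 1 was lower by the criteria, Cd79b at -0.89 (0 without scan 3), and their sum ran from 1405 to 4752 in MT and from 1180 to 2736 in NS. Of 9 tested dorsal root ganglion and Schwann cell markers, 1 was higher by the criteria, Calca at 0.65 (0 with scan as a fixed block and 0 without NS rat 10), and the sum ran from 37135 to 67819 in MT and from 37760 to 59629 in NS. Of the astrocyte, oligodendrocyte, neuron, endothelial, meningeal fibroblast and erythrocyte markers, 0 met the criteria in either direction. In whole spinal cord, more cells of a type and more RNA per cell cannot be told apart, and the part of these markers in the values of Batf, Fos, Atf3 and Junb was not tested.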

How the data were processed

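Total RNA of 10 rats was labelled with Cy3 and hybridized to one-colour Agilent arrays of rat mRNAs and lncRNAs. The authors extracted the arrays with Agilent Feature Extraction 11.0.1.1 and deposited the background-subtracted intensity of every spot, and a table of quantile-normalized log2 values for 24529 entries, from 2.32 to 17.25, with column medians from 6.82 to 6.83. Against the values used here, that table had an r of 0.993 to 0.999 per array. Its exact centring is not given in the sources used here.

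Intensities were floored at 1, converted to log2 and brought to the same quantiles by limma 3.58.1 (R 4.3.3). Outlier spots were left out, which for MRAK159688 removed 1 of 3 spots on each of 3 arrays, and probes were tested where over 50% of the spots of a probe passed the flag for signal well above background on 5 or more arrays. Spots and then probes of an RNA were averaged. mRNAs were named through RefSeq accessions (14274 of 15323 probes). MT and NS were compared with lmFit and eBayes over all 20259 RNAs, with Benjamini-Hochberg adjustment, and permutation tests of correlations drew 100000 resamples. The number of arrays limits the precision.

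Members and lists were chosen with earlier results of these data known. Named were all members, MRAK159688, up to 4 genes per pathway list with the largest differences that met the criteria, up to 3 such markers per marker list, and the 5 mRNAs most like Fos and most like Batf. The alternatives were 75th percentile scaling, normexp with an offset of 50 (on median spot and background signals), the deposited table, other filters, outlier spots kept, scan as a block or without scan 3, the methods' t-test, single probes and each rat left out. The steps were tested on simulated data. How rats were assigned to scans is not given in the sources used here. Promoters came from RefSeq GRCr8, and matplotlib 3.10.9 under Python 3.11.15 drew the figures.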

Additional observations from a re-analysis of the deposited data

Results flagged for a closer look

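A rat far from the rest of its group was looked for in 32 groups of 5 values, with a gap of more than 0.71 of the range of the group as the limit, and 3 groups passed it, where chance gives about 1 in 20. Atf3 in NS rat 10 was 8.61 against 9.46 in the nearest NS rat, a gap of 0.744 of the range. Nfe2 in MT rat 5 was 6.58 against 6.28 in the nearest MT rat, a gap of 0.714 of the range. Mmp12 in MT rat 2 was 4.19 against 3.83 in the nearest MT rat, a gap of 0.796 of the range. Without NS rat 10 the log2 difference of Atf3 was 0.54.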

How the results depend on the processing

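Across 21 alternatives, Fos, Batf and MRAK159688 kept the criteria in 21, with log2 differences of 0.61 to 1.32, 1.19 to 1.65 and 0.88 to 1.31 (with scan as a fixed block from MT rat 2 alone). Junb lost them in 8 and Atf3 in 1. Fos and Batf have 1 probe with 1 spot each and 0 outlier spots. Their log2 differences therefore could not move with other filters, outlier spots kept, single probes or the methods' t-test. The adjusted p of Batf ran from 0.0387 to 1.00. Members with an adjusted p below 0.05 numbered 1 (Batf) with normexp and with the filter on all 10 arrays, and 0 otherwise. Members that met the criteria numbered 2 to 4 when a rat was left out, with 2 without NS rat 10. The sign turned for Batf3 with scan as a fixed block (-0.0156) and without scan 3 (-0.0236), and for Jun without NS rat 10 (-0.0045, the lowest of its values with a rat left out, the highest being 0.14 without MT rat 3). RNAs with an adjusted p below 0.05 numbered 40, against 148 with normexp, 66 in the deposited table, 12 without a filter, 120 with the filter on all 10 arrays, 0 with scan as a fixed or a random block (827 and 1420 RNAs had an unadjusted p below 0.05 in limma) and 2 without scan 3. When a rat was left out they numbered 0 to 84, with 0 without MT rat 1 or NS rat 9, 2 without NS rat 8, 3 without MT rat 4, 6 without MT rat 5, 18 without NS rat 7, 21 without MT rat 3, 64 without NS rat 10 and 84 without MT rat 2. RNAs that met the criteria numbered 554, against 199 with normexp, 911 without a filter, 348 with the filter on all 10 arrays, 324 with scan as a fixed block and 328 as a random block, and 426 to 866 when a rat was left out, with 866 without NS rat 10. The methods' t-test gave 435 RNAs by the criteria and 57 after adjustment, with 4 and 0 members. The correlation of Fos with MRAK159688 ran from 0.781 to 0.923. The causes were not tested. No paired analysis was possible because the groups share no rat numbers. Dim probes carry more noise, and the arrays of scan 3 had the fewest spots well above background.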
